A study of Mus musculus with 6 samples.

Results

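The genes described here are 44 mouse genes of DNA repair and of the kinases that signal DNA damage. They were taken by name: every probe that was not a control and carried one of the 44 gene names was used, which gave 58 probes and at least 1 probe for each gene, among 36095 genes named on the arrays. Expression was measured in back skin of male C57BL/6 mice aged 6 to 8 weeks, with 1 Agilent array in 1 colour per mouse. All 6 mice had their backs shaved. In the UVB group, 3 anaesthetised mice were irradiated on the back with ultraviolet B (UVB), with a dose of 180 mJ/cm2, at 3 sessions weekly for 2 weeks, beginning 2 days after shaving. The control group was 3 mice kept in the dark. The sources used here do not state whether this dose is per session or in total, nor how long after the last session skin was taken. The sample titles say skin and do not say which of its layers were taken. Skin is a mixture of epidermis, hair follicle, dermis and immune cells, so fewer cells of a type and less RNA per cell cannot be told apart.

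Ultraviolet B joins neighbouring pyrimidines in DNA, and nucleotide excision repair removes these lesions. Its damage sensors open the DNA with the help of the transcription factor TFIIH, nucleases cut out a short single strand, and a polymerase held by the PCNA clamp fills the gap, which a ligase seals. Translesion polymerases copy past lesions still in place, base excision repair removes oxidised or deaminated bases, mismatch repair corrects copying errors, and recombination mends breaks and crosslinks. The kinases Atr and Atm, with Chek1 and Chek2 below them, halt the cell cycle when DNA is damaged. PCNA, RPA and the ligase Lig1 also serve ordinary DNA replication, so their RNA is not particular to repair.

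Each level below is a normalised log2 level: the log2 of the processed spot intensity minus the 75th percentile of the same array, so that 0 stands for that percentile. A fold change is the UVB mean minus the control mean of these levels, with its standard error (SE) from limma, and a gene is said to have passed the test where its limma p, adjusted by Benjamini-Hochberg over 24352 genes and other targets, was under 0.05. Of the 44 genes, 43 were tested, 41 of them well above background on all 6 arrays. Brca1, which guides recombination at breaks, was well above background on 0 of the 6 arrays, at -7.45 to -6.46, and was not tested. Fancd2, the central protein of crosslink repair, was well above background on 3 control arrays and 1 UVB array, and Chek1 on 3 control arrays and 2 UVB arrays. These 2 genes entered the test mainly through the control group, and their UVB values are of dim spots.

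Most repair genes were slightly lower after UVB, and few passed the test. Of the 43 tested, 2 passed as higher (Ercc5 and Polk) and 6 as lower (Pcna, Rpa1, Gtf2h4, Ercc8, Mutyh and Apex1), or 18.6%, where 12.6% of all targets passed. By direction, 14.0% of the tested repair genes passed as lower against 7.01% of all targets, and 4.65% as higher against 5.55%, a share near that of all targets. The median fold change was -0.32 against -0.04 over all targets, and 35 of the 43 values were negative against 53.3% of all targets. Levels on the UVB arrays lay wholly below those on the control arrays for 21 repair genes and wholly above for 4, together 58.1% of those tested against 38.5% of all targets; the shares of all targets were 22.6% below and 15.9% above. Changes were small: the 95% interval lay within 2-fold in both directions for 34 of the 43 genes, against 65.8% of all targets. When each array was left out in turn, which leaves 5 arrays, 0 to 4 of the 8 calls were made. No repair gene passed without control array 2 or without UVB array 1, 1 gene passed without control array 1, and 4, 2 and 3 genes passed without control array 3, UVB array 2 and UVB array 3. Fewer of all targets passed too: 3.53% without control array 2, 4.21% without UVB array 1 and 6.68% without control array 1. Without control array 3, UVB array 2 and UVB array 3 the shares of all targets were 7.24%, 7.15% and 7.83%. With arrays scaled to their median in place of the 75th percentile, 0 repair genes passed as higher and 6 as lower, with Rpa1 lost and Ddb2 gained. With that scaling 4.06% of all targets passed as higher and 7.42% as lower.

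**Figure D1:**
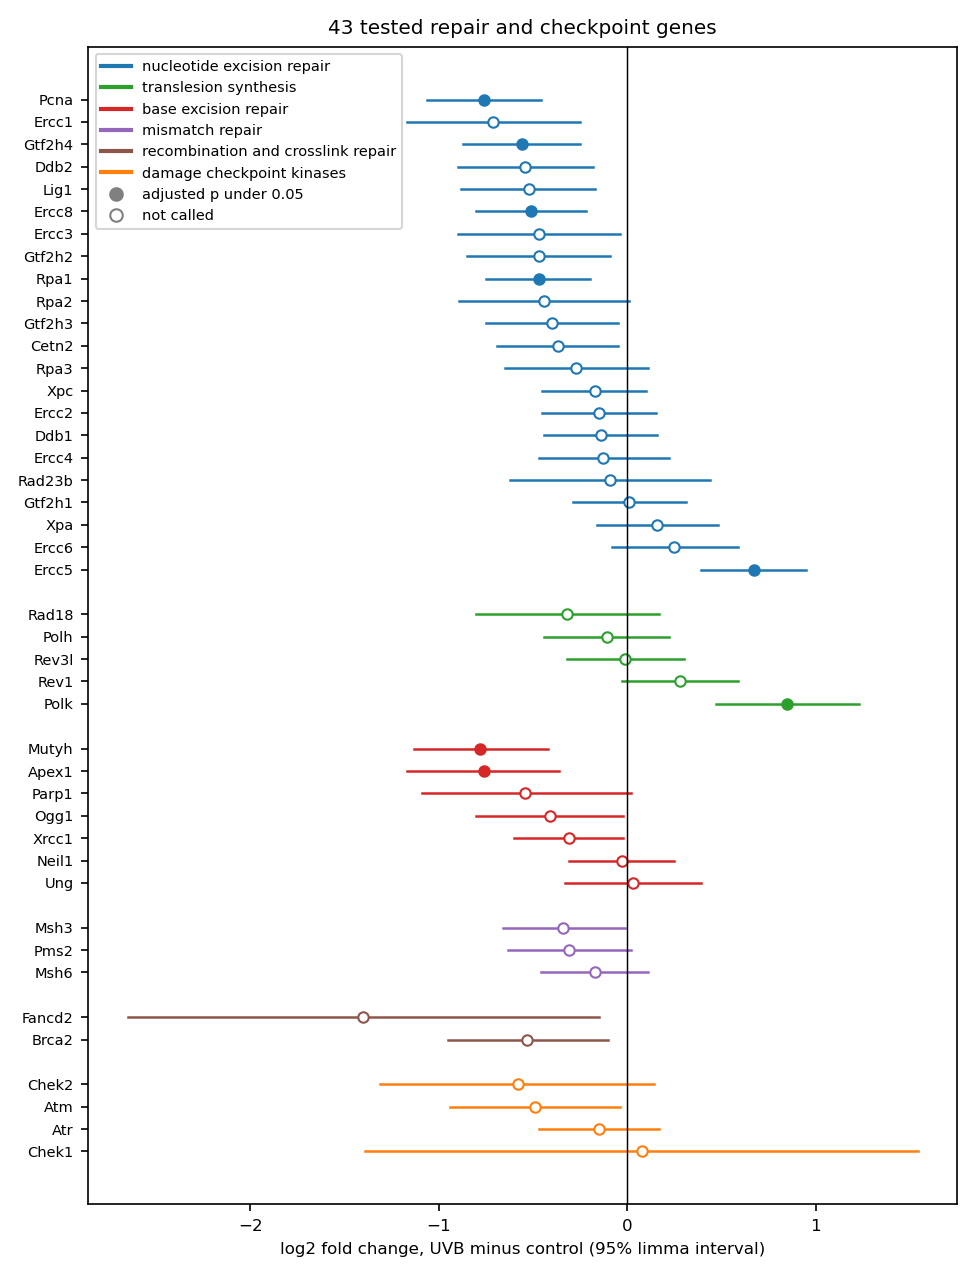
Log2 fold change, UVB minus control, of each of the 43 tested genes (x axis) with its 95% limma interval (line), grouped and coloured by repair pathway. Filled points mark the 8 genes that passed at adjusted p under 0.05; 6 of them lie left of 0, and Ercc5 and Polk lie right of it.

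Among the nucleotide excision repair genes of RPA, the clamp and the ligase, 2 of 5 passed, both lower, where 7.01% of all targets passed as lower. Pcna, the lower gene with the smallest p, encodes the sliding clamp for DNA polymerases. On control arrays 1 to 3 its level was 4.90, 5.04 and 4.91, and on UVB arrays 1 to 3 it was 4.17, 4.34 and 4.07. Every UVB array lay below every control array. Pcna fell by 0.76 ± 0.12 on the log2 scale (SE, n = 3 per group; 1.69-fold lower; limma adjusted p = 0.0166). The call was lost without control array 2 (limma adjusted p = 0.0782) or UVB array 1 (limma adjusted p = 0.0641) and kept without any other single array. In the files its probe lies at chr2:132075022-132075054 on the minus strand in mm9, a stretch of 33 bases where most probes have 60; whether copies of Pcna elsewhere in the genome add to its signal was not tested.

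Rpa1 encodes the large subunit of RPA, which coats single-stranded DNA. Its level was 3.93, 4.0 and 4.0 on the control arrays and 3.44, 3.62 and 3.45 on the UVB arrays, with no overlap. The fold change was -0.47 ± 0.11 (limma adjusted p = 0.0458), the largest p among the 8 genes that passed. It did not pass without any 1 of the 6 arrays, at limma adjusted p of 0.0612 to 0.159, nor with median scaling (-0.58, limma adjusted p = 0.0661). A second Rpa1 probe gave -0.58 ± 0.13, and over all probes it passed (limma adjusted p = 0.0377) while the first did not (limma adjusted p = 0.0532). The other RPA subunits did not pass: Rpa2 had a fold change of -0.44 ± 0.19 and Rpa3 one of -0.27 ± 0.16, and both had overlapping groups. Lig1 joins the repaired strand. At -0.52 ± 0.15 it did not pass (limma adjusted p = 0.0681), although its UVB levels of 2.83, 2.81 and 2.56 lay below the control levels of 3.09, 3.44 and 3.24.

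Among genes that open the DNA and check the lesion, 1 of 7 passed, a share near the 12.6% of all targets. Gtf2h4 encodes the p52 subunit of TFIIH. Its level was 2.47, 2.25 and 2.21 on the control arrays and 1.79, 1.83 and 1.64 on the UVB arrays. The groups did not overlap, and Gtf2h4 fell by 0.56 ± 0.13 (1.47-fold lower; limma adjusted p = 0.0406). Without any 1 array it did not pass (limma adjusted p of 0.0721 to 0.123). Other TFIIH subunits had fold changes of -0.47 ± 0.18 (Ercc3, the XPB helicase), -0.47 ± 0.16 (Gtf2h2), -0.40 ± 0.14 (Gtf2h3), -0.15 ± 0.12 (Ercc2, the XPD helicase) and 0.01 ± 0.12 (Gtf2h1). None of these 5 passed. Xpa, which binds the opened lesion and organises the repair complex, had a level of 3.31, 3.25 and 3.13 in controls and 3.33, 3.57 and 3.27 after UVB. These overlapped, with a fold change of 0.16 ± 0.13 and a 95% interval of -0.16 to 0.48.

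The incision nucleases took opposite signs. Ercc5, or XPG, cuts the damaged strand on the 3′ side of the lesion. Its level was 0.71, 0.85 and 0.93 on the control arrays and 1.49, 1.56 and 1.45 on the UVB arrays. All UVB levels lay above all control levels, and Ercc5 rose by 0.67 ± 0.12 (1.59-fold higher; limma adjusted p = 0.0198). A second, dimmer probe gave 0.56 ± 0.15, which did not pass over all probes (limma adjusted p = 0.0660). The call was kept without control array 3 or UVB array 3, was lost without any other single array (limma adjusted p of 0.0539 to 0.0831) and was lost with median scaling (0.57, limma adjusted p = 0.0724). The 5′ cut is made by the pair of Ercc1 and Ercc4 (XPF). Ercc1 had a level of 0.38, 0.49 and 0.53 in controls and -0.05, -0.04 and -0.64 after UVB, which did not overlap, and its fold change of -0.71 ± 0.19 missed the threshold (limma adjusted p = 0.0602). Ercc4 had overlapping groups and a fold change of -0.13 ± 0.14.

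Of the damage sensors 0 of 5 passed, where 12.6% of all targets did, a count too small to set the sensors apart. Xpc, the sensor of distorted DNA across the genome, had a level of 1.01, 1.03 and 0.91 on the control arrays and 0.76, 0.91 and 0.77 on the UVB arrays. To the printed decimals, UVB array 2 and control array 3 had the same Xpc level, and the fold change was -0.17 ± 0.11 with a 95% interval of -0.45 to 0.10. Ddb2 (XPE) binds pyrimidine dimers within the UV-DDB complex and is a known p53 target in human cells. Its level was 1.02, 0.73 and 0.56 in controls and 0.23, 0.18 and 0.28 after UVB. Each UVB level was lower than each control level, but the fold change of -0.54 ± 0.15 missed the threshold (limma adjusted p = 0.0649); it passed with 4 of 15 alternative settings, the lowest limma adjusted p being 0.0336. Its partner Ddb1 had a fold change of -0.14 ± 0.12, Rad23b one of -0.09 ± 0.22 and Cetn2, the centrin of the Xpc complex, one of -0.37 ± 0.13.

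In the branch that repairs transcribed strands, Ercc8 (CSA), part of a ubiquitin ligase recruited to stalled RNA polymerase, was lower. Its level was 1.11, 0.91 and 0.99 on the control arrays and 0.48, 0.60 and 0.40 on the UVB arrays, without overlap. Ercc8 fell by 0.51 ± 0.12 (1.42-fold lower; limma adjusted p = 0.0442) and did not pass without any 1 array (limma adjusted p of 0.0655 to 0.119). Over all probes a second one, at -0.76 ± 0.15, passed (limma adjusted p = 0.0287), the first did not (limma adjusted p = 0.0508), and the third was dim, well above background on 0 of 6 arrays. Ercc6 (CSB), the remodeller that acts with it, had a level of -2.15, -1.82 and -1.86 in controls and -1.58, -1.75 and -1.73 after UVB. These groups did not overlap either, in the other direction, and the fold change of 0.25 ± 0.14 missed the threshold (limma adjusted p = 0.260). The difference between Ercc8 and Ercc6 was not tested.

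**Figure D2:**
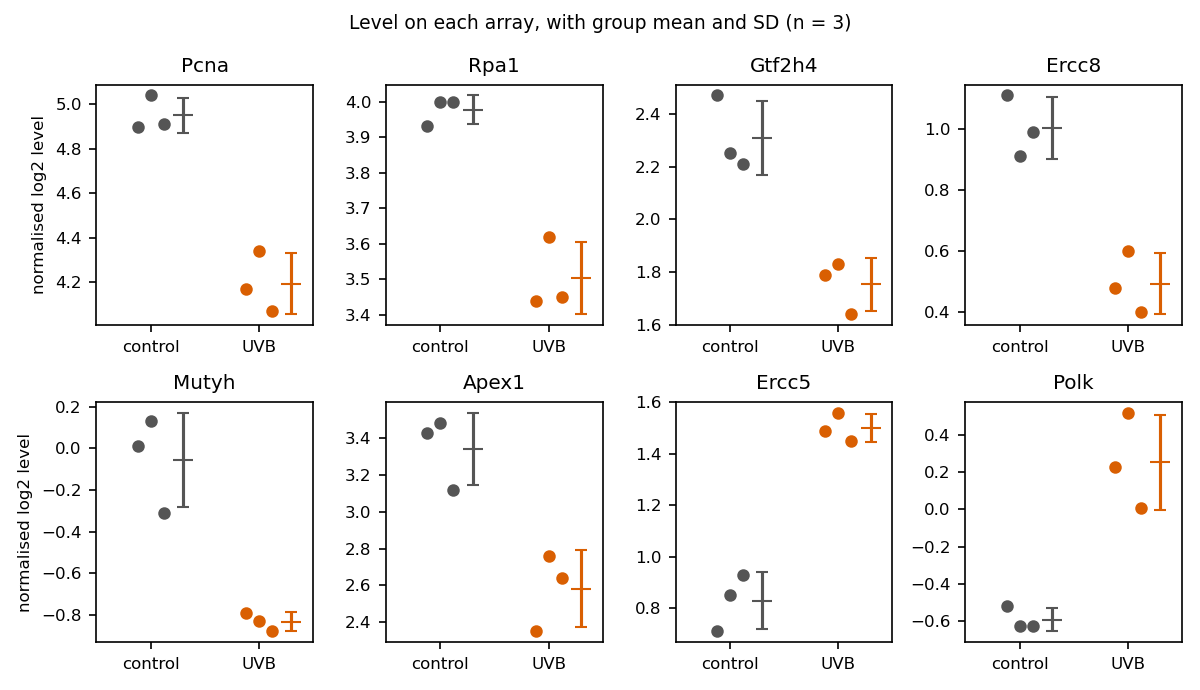
Normalised log2 level (y axis, a separate scale for each gene) on each of the 3 control and 3 UVB arrays for the 8 genes that passed; the bar beside the points is the mean with its SD. In each panel the groups do not overlap; Ercc5 and Polk are higher on the UVB arrays and the other 6 genes lower.

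Among the pathways of the 44 genes, translesion synthesis was the one with a median near 0, at -0.01 over 5 genes. It held the other gene that rose. Further translesion genes outside the 44, described below, had a median of -0.18. Polk encodes DNA polymerase kappa, which copies past bulky adducts and is also used for gap filling in nucleotide excision repair. Its level was -0.52, -0.63 and -0.63 on the control arrays and 0.23, 0.52 and 0.01 on the UVB arrays. The UVB levels were all higher and more spread than the control levels. Polk rose by 0.85 ± 0.16 (1.80-fold higher; limma adjusted p = 0.0232), and a second probe gave 0.96 ± 0.17, which also passed over all probes (limma adjusted p = 0.0223). The call was kept without UVB array 2 or UVB array 3 and lost without any other single array (limma adjusted p of 0.0560 to 0.0938) and with median scaling (0.74, limma adjusted p = 0.0521).

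Polh encodes polymerase eta, the enzyme that copies pyrimidine dimers accurately and is missing in the variant form of xeroderma pigmentosum. Its level was -1.56, -1.23 and -1.21 in controls and -1.45, -1.39 and -1.50 after UVB. The groups overlapped, and the fold change was -0.11 ± 0.14 with a 95% interval of -0.44 to 0.22. Rev1, the scaffold of the translesion polymerases, had a fold change of 0.28 ± 0.13, which failed the test (limma adjusted p = 0.188), with UVB levels of -0.90, -0.81 and -0.68 above control levels of -1.22, -1.01 and -1.0. Rev3l, the catalytic subunit of polymerase zeta, had one of -0.01 ± 0.13 and Rad18, the ligase that marks PCNA for translesion synthesis, one of -0.32 ± 0.20.

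In base excision repair, 2 of 7 genes passed, both lower, where 7.01% of all targets passed as lower. Mutyh encodes the glycosylase that removes adenine paired with oxidised guanine. Its level was 0.01, 0.13 and -0.31 on the control arrays and -0.79, -0.83 and -0.88 on the UVB arrays. The UVB levels were close together and below each control. Mutyh fell by 0.78 ± 0.15 (1.72-fold lower; limma adjusted p = 0.0240), and its second probe, at -1.04 ± 0.17, passed over all probes as well (limma adjusted p = 0.0183). The call was kept without control array 3 and lost without any other single array (limma adjusted p of 0.0608 to 0.0941).

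Apex1 encodes the endonuclease that cuts the strand once a base has been removed. Its level was 3.43, 3.48 and 3.12 in controls and 2.35, 2.76 and 2.64 after UVB, with no overlap. Apex1 fell by 0.76 ± 0.17 (1.70-fold lower; limma adjusted p = 0.0355). Like Mutyh it passed without control array 3, and not without any other single array (limma adjusted p of 0.0556 to 0.129). Ogg1, the glycosylase for oxidised guanine itself, had a fold change of -0.41 ± 0.16, which failed the test (limma adjusted p = 0.140), although its groups did not overlap. Parp1, the sensor of strand breaks, had overlapping groups and a fold change of -0.54 ± 0.23. The rest of this group ranged from -0.31 ± 0.12 for the scaffold Xrcc1 to 0.03 ± 0.15 for the uracil glycosylase Ung, with the glycosylase Neil1 at -0.03 ± 0.12.

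Mismatch repair, recombination and the checkpoint kinases had no gene that passed, 0 of 9 tested, where 12.6% of all targets passed. A count of 0 among so few genes does not set them apart. An unadjusted limma p under 0.05 was reached by Msh3, Brca2, Atm and the dim Fancd2, and by 31.5% of all targets. Msh6, which recognises single mismatches, had a level of 3.21, 3.35 and 3.25 in controls and 3.02, 3.22 and 3.06 after UVB, which overlapped, with a fold change of -0.17 ± 0.12. Msh3, which recognises larger loops, had one of -0.34 ± 0.13, and all 3 of its probes were negative; Pms2, the nicking subunit, had one of -0.31 ± 0.14. Brca2, which acts in recombination at breaks, had one of -0.53 ± 0.18 (limma adjusted p = 0.102) with groups that did not overlap. Fancd2 had one of -1.40 ± 0.52, from control levels of -4.04, -3.46 and -3.81 and UVB levels of -4.21, -4.99 and -6.32; with normexp background correction its value was 0.06.

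Of the kinases, Atr, which responds to stalled replication and ultraviolet lesions, had a level of 1.81, 1.99 and 1.65 in controls and 1.6, 1.73 and 1.67 after UVB. These overlapped, with a fold change of -0.15 ± 0.13. Chek1, the kinase below Atr, had levels of -4.37, -3.61 and -3.86 in controls and -3.11, -5.31 and -3.18 after UVB, a spread so wide that its fold change of 0.08 ± 0.61 had a 95% interval of -1.39 to 1.54. Atm, the kinase of double-strand breaks, had probes that differed: the one with the higher mean level gave -0.49 ± 0.19 and the other 0.00 ± 0.16, and neither passed. Chek2, the kinase below Atm, had a fold change of -0.58 ± 0.30 (limma adjusted p = 0.238), which was -0.07 with normexp background correction and -0.28 without UVB array 3. For Atr, Polh, Xpc, Xpa, Ddb1 and Ercc4 the 95% intervals lay within 2-fold in both directions, while for Chek1 and Chek2 they did not.

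Set side by side, the pathway medians were -0.38 over 22 genes of nucleotide excision repair, -0.41 over 7 of base excision repair, -0.31 over 3 of mismatch repair, -0.32 over 4 checkpoint kinases, -0.96 over the 2 tested recombination genes and -0.01 over 5 of translesion synthesis. Steps of nucleotide excision repair differed: -0.47 over 5 genes of RPA, clamp and ligase and -0.40 over 7 that open the DNA and check the lesion. The median was -0.17 over 5 damage sensors, -0.13 over 3 incision genes and -0.13 over 2 of the transcription-coupled branch. Averaged over its genes, nucleotide excision repair stood at -0.23, -0.18 and -0.41 on UVB arrays 1 to 3 relative to the control mean, against -0.03 to 0.03 on the control arrays. Base excision repair stood at -0.43, -0.32 and -0.45 on the UVB arrays, and mismatch repair at -0.32, -0.21 and -0.29. Translesion synthesis stood at 0.15, 0.25 and 0.02 on the UVB arrays and between -0.07 and 0.04 on the controls. Without Polk, a choice made after seeing the data, the other 4 translesion genes stood at -0.02, 0.03 and -0.13 on the UVB arrays and between -0.10 and 0.06 on the controls. With quantile normalization the translesion median was 0.04 and with median scaling -0.11, and the recombination median was -0.17 with normexp background correction and -0.53 with the filter on all 6 arrays, which leaves out Fancd2. The checkpoint median was -0.12 with normexp, -0.20 with the mean of a gene's probes and -0.49 with the filter on all 6 arrays, which leaves out Chek1. Differences between the pathways were not tested.

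Arrays of a group did not contribute equally. UVB array 3 held the lowest of the 3 UVB levels for 28 of the 43 genes, and control array 2 the highest of the 3 control levels for 21. These counts were not made over all targets. Further repair genes and a replication list, both described below, also had their lowest mean on UVB array 3, at -0.40 and -0.95. Over all 43 genes the mean relative to the controls was -0.22, -0.22 and -0.41 on UVB arrays 1 to 3 and -0.04, 0.08 and -0.04 on control arrays 1 to 3. The 75th percentile used for scaling was 302 to 352 in signal on the UVB arrays and 363 to 519 on the control arrays.

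A further 111 repair and checkpoint genes outside the 44 were tested in the same fit. Their median fold change was -0.27 and 91 were negative, where 53.3% of all targets were. Of the 111, 20 passed as lower and 2 as higher, where 7.01% and 5.55% of all targets did. By pathway, their medians were -0.33 in nucleotide excision repair, -0.18 in translesion synthesis and -0.14 in base excision repair. They were -0.27 in mismatch repair, -0.28 in recombination, -0.39 in the checkpoint, -0.38 in end joining and -0.16 in direct reversal. Of these translesion genes, 7 of 8 were negative. Among the 21 further nucleotide excision repair genes 7 passed, all lower, and all were subunits of the polymerases or clamp loader described below. Leaving out 1 array gave 2 to 11 lower, 2 of them without control array 2, and 0 or 1 higher. In those fits 1.61% to 4.37% of all targets passed as lower and 1.92% to 3.93% as higher. The 2 higher genes were Mgmt, which removes alkyl groups from guanine directly, and Dclre1c, the Artemis nuclease of end joining; Dclre1c, at 0.67 ± 0.15, is named after its value was seen. Mgmt had a level of 1.44, 1.28 and 1.30 on the control arrays and 2.29, 2.89 and 2.72 on the UVB arrays. No array of one group reached the other, and Mgmt rose by 1.30 ± 0.18 (limma adjusted p = 0.0106; 0.0503 without control array 2, and passed without any other single array). Dclre1c did not pass without any 1 array or with median scaling.

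The lower genes of this wider set included 3 subunits of DNA polymerase delta, which works with the PCNA clamp. Pold2 had a level of 0.53, 0.26 and 0.28 in controls and -1.14, -0.84 and -1.26 after UVB, far apart, and fell by 1.44 ± 0.16 (limma adjusted p = 0.00566). Pold1, the catalytic subunit, fell by 0.89 ± 0.14 and Pold3 by 0.61 ± 0.11. Pole2, a subunit of polymerase epsilon, fell by 0.92 ± 0.17, and Rfc3, a subunit of the loader that places PCNA on DNA, by 1.01 ± 0.18. Rfc5 and Rfc2 of the same loader and the flap nuclease Fen1 also passed as lower. Subunits of the same complexes that did not pass were Pold4, Pole, Rfc1 and Rfc4, at -0.24 ± 0.11, -0.69 ± 0.21, -0.33 ± 0.14 and -0.45 ± 0.16; they are named after their values were seen.

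Of recombination genes, Rad51b had a level of -1.54, -1.71 and -1.66 on the control arrays and -2.71, -2.73 and -2.73 on the UVB arrays. The UVB levels were nearly equal, and Rad51b fell by 1.09 ± 0.11 (limma adjusted p = 0.00451). Xrcc3 fell by 0.91 ± 0.14. Of checkpoint genes, Cdc25a and Cdc25b, phosphatases that switch on the cyclin-dependent kinases and are turned off by Chek1, fell by 0.84 ± 0.11 and 0.95 ± 0.17. Rad51b and Pold2 passed under all 15 alternative settings, with Rad51b at -0.52 under normexp background correction. Cdc25a, Xrcc3 and Pold1 passed without any 1 array except control array 2 (limma adjusted p of 0.0538, 0.0548 and 0.0702), and Rfc3, Cdc25b, Pold3 and Pole2 passed in 2 or 3 of the 6 fits that leave out 1 array. The other genes that passed as lower were Bard1 and Xrcc2 of recombination, Xrcc4 and Nhej1 of end joining, Usp1, which removes ubiquitin from PCNA, and Tipin, Atrip and Cdc25c of the checkpoint. Mismatch repair genes of the wider set had 0 calls of 5 by limma, where 12.6% of all targets were called.

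**Figure D3:**
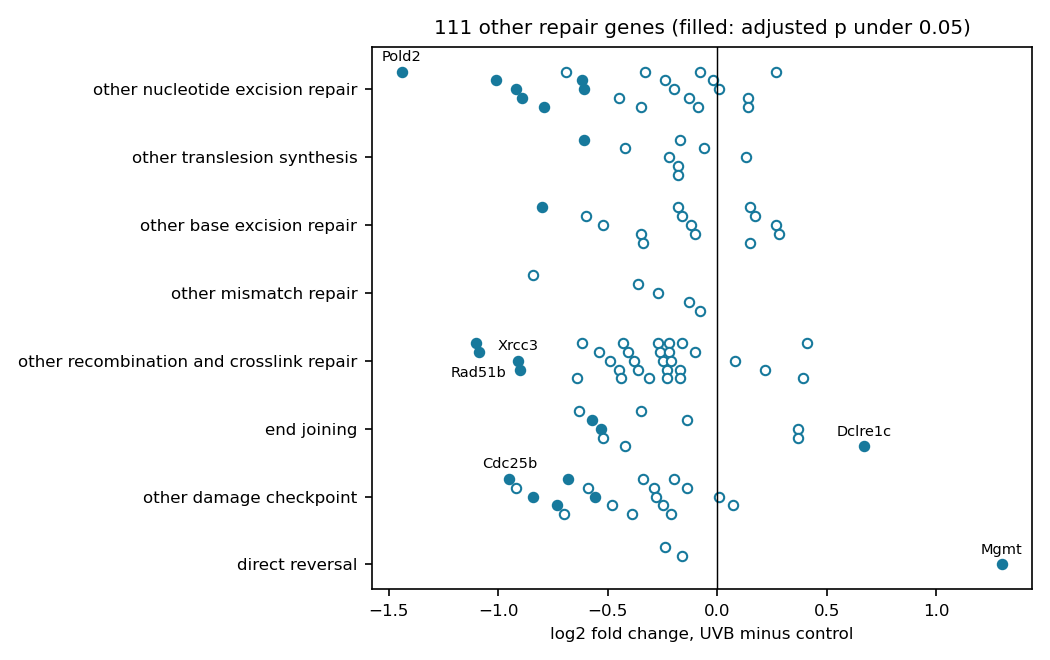
Log2 fold change, UVB minus control (x axis), of the 111 further repair and checkpoint genes, in rows by pathway; filled points passed at adjusted p under 0.05 and vertical offsets within a row only separate points. Mgmt, at 1.30, and Dclre1c, at 0.67, are the 2 filled points right of 0, and 20 filled points lie left of it.

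Replication genes were lower as well. In a list of 25 tested genes of the replication helicase and of mitosis, 10 passed as lower and 0 as higher. Of all targets, 7.01% passed as lower and 5.55% as higher. The list had a median of -0.70 and 25 negative values. Its summed level, in multiples of the 75th percentile, was 209 to 262 on the control arrays and 125 to 163 on the UVB arrays. With 1 array left out, 3 to 8 of these genes passed as lower, where 1.61% to 4.37% of all targets did. Mcm2, a helicase subunit, fell by 1.11 ± 0.13 (limma adjusted p = 0.00693), while Mki67, a marker of cycling cells, had overlapping groups and a fold change of -0.14 ± 0.17. In a list of 20 p53 targets outside repair, 6 passed as higher and 0 as lower, against the same shares of all targets. Their median was 0.45. With 1 array left out 2 to 5 passed as higher, where 1.92% to 3.93% of all targets did. Ccng1 rose by 1.39 ± 0.17, and Cdkn1a, the p21 inhibitor, had a fold change of 0.48 ± 0.17, which failed the test (limma adjusted p = 0.115). The part of either list in the repair genes' values was not tested.

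**Figure D4:**
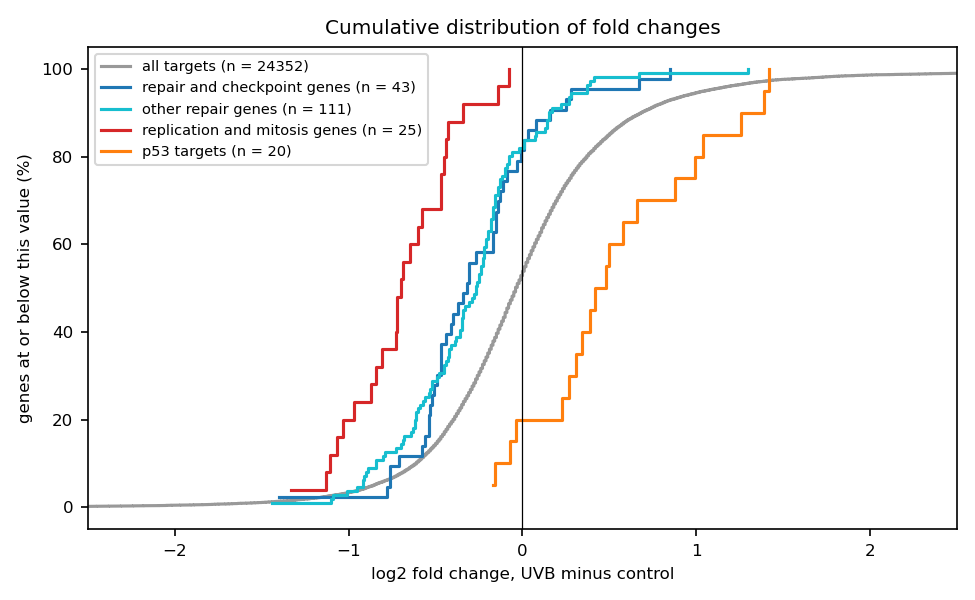
Share of genes (y axis, %) at or below each log2 fold change, UVB minus control (x axis), for the 43 tested repair and checkpoint genes, 111 further repair genes, 25 replication and mitosis genes, 20 p53 targets and all 24352 targets; the x axis is cut at 2.5 in both directions. The median is -0.32 for the 43 genes and -0.27 for the further repair genes, against -0.70 for the replication genes and -0.04 for all targets.

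The tissue also differed in composition markers. All 10 basal keratinocyte markers tested were present, with a summed level of 1600 to 1990 on control and 1460 to 1650 on UVB arrays, 4 of 10 passing as lower. Cornified keratinocyte markers summed to 1780 to 2320 and 3110 to 3800 (4 of 10 higher), hair follicle matrix and shaft markers to 18.9 to 21.1 and 281 to 1080 (8 of 12 higher), and melanocyte markers to 6.43 to 7.44 and 20.1 to 30.0 (7 of 10 higher). Langerhans and dendritic cell markers summed to 201 to 235 and 87.2 to 117 (5 of 9 lower), and T cell markers to 49.0 to 55.2 and 19.9 to 26.1 (6 of 9 lower, 1 higher), with Trdc not measured well above background. Dermal fibroblast markers summed to 6.15 to 12.7 and 18.3 to 27.0 (4 of 7 higher), and macrophage and neutrophil markers to 43.7 to 89.4 and 89.3 to 161 (1 of 7 higher, 2 lower). In that list Adgre1 and Csf1r, macrophage markers, fell by 1.88 ± 0.11 and 1.52 ± 0.17. S100a8 and S100a9, which did not pass, had fold changes of 1.35 ± 0.40 and 1.22 ± 0.44. Alone they do not show more neutrophils, since Ly6g and Mpo of the same list were too dim to test. Adipocyte markers summed to 2.97 to 8.92 and 7.25 to 29.8 (1 of 6 higher, Fabp4 at 4.80 ± 0.77, and 1 lower, Cidec at -2.66 ± 0.48; 4 of 6 negative), endothelial markers to 9.14 to 10.6 and 11.3 to 13.9 (1 of 4 lower), and muscle markers to 0.855 to 3.46 and 1.48 to 1.75 (0 of 5 by limma). Adipoq, Plin1, Ckm, Mylpf, Actn3, Cdh5, Tek, Emcn, Prox1, Pdgfra, Cd68, Ly6g and Mpo were too dim to test. Their part in the repair genes' values was not tested.

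Many repair genes share a start region with a neighbour on the other strand. Of the 44 genes, 39 matched an entry of the RefSeq promoter table (GRCm38.p6), and 17 of these (43.6%) had a head-to-head partner, a gene on the opposite strand that starts within 1000 bases upstream, against 12.2% of all genes in the table and 16.9% of tested genes. The stretches between the starts are shown for the 4 lower genes that have such a partner, since their letters serve both genes. Each is written 5′ to 3′ on the repair gene's strand, and capitals mark CCAAT or its reverse complement ATTGG, the box bound by NF-Y.
Mutyh to Toe1, chr4:116807560-116807733, plus strand: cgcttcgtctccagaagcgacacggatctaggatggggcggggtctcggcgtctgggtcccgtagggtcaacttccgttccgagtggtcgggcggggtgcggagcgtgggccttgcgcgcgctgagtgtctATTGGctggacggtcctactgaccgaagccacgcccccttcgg
Apex1 to Osgep, chr14:50924894-50924948, plus strand: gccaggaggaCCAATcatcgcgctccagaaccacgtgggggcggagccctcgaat
Rpa1 to Smyd4, chr11:75348384-75348432, minus strand: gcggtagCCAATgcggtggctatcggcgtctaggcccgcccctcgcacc
Ercc8 to Ndufaf2, chr13:108158626-108158737, plus strand: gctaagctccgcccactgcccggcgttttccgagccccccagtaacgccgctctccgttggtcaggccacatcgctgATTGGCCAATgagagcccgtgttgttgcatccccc

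Partners of Mutyh and Apex1 passed in the same direction as the repair gene. Toe1, a nuclease of small nuclear RNAs that starts 175 bases from Mutyh, had a level of 0.66 ± 0.16 in controls and -0.02 ± 0.05 after UVB (SD, n = 3), a fold change of -0.68 ± 0.13 (limma adjusted p = 0.0239). Osgep, a tRNA modification enzyme that starts 56 bases from Apex1, went from 3.65 ± 0.06 to 3.06 ± 0.10, a fold change of -0.58 ± 0.12 (limma adjusted p = 0.0273). Smyd4, 50 bases from Rpa1, and Ndufaf2, 113 bases from Ercc8, had fold changes of -0.29 ± 0.12 and -0.31 ± 0.15 and did not pass. Cert1, 156 bases from Polk, had one of 0.10 ± 0.11 beside the 0.85 of Polk. Toe1 passed in 2 of the 6 fits that leave out 1 array and Osgep in 0 (limma adjusted p of 0.0509 to 0.104). Nsdhl, 177 bases from Cetn2, passed as lower at -1.0 ± 0.18, and Pinlyp, 694 bases from Xrcc1, passed as higher at 1.87 ± 0.34; in those 6 fits Nsdhl passed in 1 and Pinlyp in 3.

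In 12 pairs both genes were tested, and 9 of the 12 had fold changes of the same sign, against 456 of 711 (64.1%) among all such pairs on the arrays. The shares are not like for like, since 35 of the 43 repair genes were negative against 53.3% of all targets. A count over 12 pairs does not set the repair genes apart. Over all targets, 26 of 105 partners of a lower gene (24.8%) were lower themselves, against 7.38% of all partners. A pair with both genes lower was counted from each side, so the 26 are not 26 separate pairs. These are counts over neighbouring genes, without a test.

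**Figure D5:**
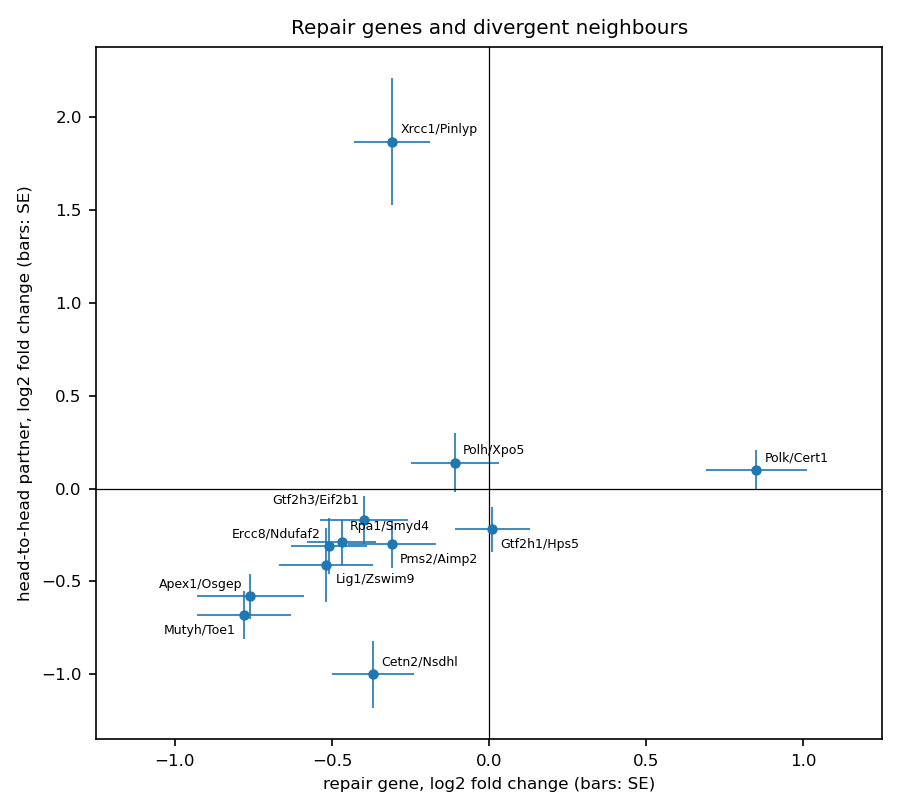
Log2 fold change of the repair gene (x axis) against that of its head-to-head partner (y axis) for the 12 pairs in which both were tested; bars are limma SEs. Mutyh with Toe1 and Apex1 with Osgep lie at the lower left, and Polk with Cert1 lies far right near 0 on the y axis.

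The 4 other genes that passed are shown by the 150 bases before their start, 5′ to 3′ on the gene's strand, with CCAAT or ATTGG again in capitals, because 2 of them rose and 2 fell.
Pcna, chr2:132253181-132253330, minus strand: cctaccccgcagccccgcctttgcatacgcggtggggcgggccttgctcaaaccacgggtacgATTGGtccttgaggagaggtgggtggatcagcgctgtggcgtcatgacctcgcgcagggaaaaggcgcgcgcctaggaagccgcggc
Gtf2h4, chr17:35673744-35673893, minus strand: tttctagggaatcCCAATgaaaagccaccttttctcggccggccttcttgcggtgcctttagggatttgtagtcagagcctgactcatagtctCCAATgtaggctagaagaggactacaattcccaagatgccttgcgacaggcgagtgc
Ercc5, chr1:44147594-44147743, plus strand: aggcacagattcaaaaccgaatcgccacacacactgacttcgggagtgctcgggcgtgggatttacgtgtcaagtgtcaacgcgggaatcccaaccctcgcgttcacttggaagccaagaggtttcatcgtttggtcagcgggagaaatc
Polk, chr13:96542580-96542729, minus strand: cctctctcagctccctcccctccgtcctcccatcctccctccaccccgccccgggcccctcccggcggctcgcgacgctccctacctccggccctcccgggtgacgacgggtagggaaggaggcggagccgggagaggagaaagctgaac

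Within these 150 bases the Pcna and Gtf2h4 stretches hold the box, and those of Ercc5 and Polk do not. The share of all genes holding the box in this window was not counted, and the contrast was not tested. Over the full promoter entry of 300 bases, 250 before and 50 after the start, CCAAT on either strand was in 21 of 39 repair genes (53.8%), Ercc5 among them, against 41.1% of all genes and 42.1% of tested genes. The words TTTGAA and TTCGAA, called CHR, were in 3 of 39 (7.69%) against 21.7% of all genes and 17.1% of tested genes. A full p53 response element without a spacer was in 0 of 39, and in 0.0111% of all genes. With the element so rare, 0 of 39 says nothing about p53 and these genes. Words of this kind are matches of letters and not measured binding sites.

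Words bound by E2F, the factor family of S-phase genes (TTTCCCGC, TTTGGCGC, TTTCGCGC and TTTGCCGC, on either strand), were in 5 of 39 repair genes (12.8%) against 2.60% of all genes and 4.08% of tested genes. All 5 genes, Brca2, Chek2, Lig1, Msh3 and Msh6, had negative fold changes, as had 35 of the 43 tested genes, and none passed the test. Their words are shown in capitals in 24 bases each, 5′ to 3′ on the gene's strand.
Brca2, chr5:150522445-150522468, plus strand: aggccacaGCGGGAAAcagacaca
Chek2, chr5:110839823-110839846, plus strand: gattagccGCGGGAAAccaagacg
Lig1, chr7:13278844-13278867, plus strand: caaagtgcGCGCGAAAtctgtgtg
Msh3, chr13:92355190-92355213, minus strand: ccgtcaagTTTGGCGCGAAAtcgc
Msh6, chr17:87975057-87975080, plus strand: ctcccgacTTTCCCGCcagcggcg

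In the first 3 sequences the word lies on the reverse strand, and in that of Msh3 overlapping words read from both strands. The fold changes of these genes, given above, ranged from -0.58 for Chek2 (-0.07 with normexp) to -0.17 for Msh6. Of the 6 genes that passed as lower, 0 held such a word. With the words in only 4.08% of tested genes, a count of 0 among 6 says nothing about these calls.

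Probes of the genes that passed lie, by the positions the files give in mm9, at chr1:44237384-44237443 for Ercc5, chr13:97251653-97251712 for Polk, chr11:75113898-75113957 for Rpa1 and chr17:35804909-35805393 for Gtf2h4. Those of Ercc8, Mutyh and Apex1 lie at chr13:108984622-108984681, chr4:116491926-116491985 and chr14:51546483-51546542. The Gtf2h4 position spans 485 bases, more than a probe's length. An mm9 gene annotation was not used here, so the exon or untranslated region under each probe is not stated. Of 12 genes with more than 1 tested probe, 11 had probes of the same sign, Atm being the exception. Over all 56 tested probes of the 44 genes, 10 passed, where 11.2% of all probes did.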

How the data were processed

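RNA of each mouse (0.2 µg, Cy3, per the labels) was hybridised to 1 array; groups came from the sample titles. The authors deposited spot intensity extracted with Agilent Feature Extraction 10.7.1.1, per the file headers and the submitters' processing notes, and a table of log2 values, which correlated closely with each own array. The sources used here do not give that table's normalization. Sorted, its columns differed by at most 0.00212, with a median of 4.95 each, as columns do after quantile normalization.

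From the deposited processed intensity, log2 levels were formed relative to the 75th percentile of the 59305 non-control spots of the same array. Outlier spots (135 to 274 per array) were left out and spots of a probe averaged. A probe was tested where well above background on at least 3 of 6 arrays (54.9% to 63.3% of spots per array were); the probe with the highest mean stood for a gene. Rises of dim genes can hold an offset left by this scaling. Genes were named through RefSeq accessions or symbols (GRCm38.p6). limma 3.58.1 (R 4.3.3; lmFit, eBayes, two-sided) compared the groups without covariates; adjusted p-values are Benjamini-Hochberg over all targets. Steps were tested on simulated data. There was 1 slide and 1 scan time, no saturated spot, and the number of arrays limits precision.

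The members, gene lists and motif words were chosen with earlier results of these data known. Named with values were all genes that passed, those with differing or dim probes, textbook ultraviolet genes and the lead gene of each pathway, and up to 10 further repair genes by smallest p; others, values of remaining genes included, were added after values were seen. The labels do not say whether replicate numbers pair the mice, and the main fit did not pair them. Deviations of same-numbered arrays correlated at -0.108, -0.262 and -0.0789. With 3 arrays per group such correlations cannot decide the question. Alternatives were other scalings, normexp (offset 50), the deposited table, filters, probe means, a trended robust variance, a replicate block and leaving out each array.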

Additional observations from a re-analysis of the deposited data

How the results depend on the processing

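Of 15 alternative settings, quantile normalization, the deposited table and the mean of a gene's probes gave the same 8 calls. The first 2 are nearly 1 setting, with 3384 and 3387 targets called, and do not count as separate checks. Averaging leaves the fold changes of genes with 1 tested probe as they were, and only 12 repair genes have more. All 8 kept their sign in every setting. Median scaling called 0 repair genes higher and 6 lower, with a median of -0.42; it shifted the median of all targets by -0.10, normexp by 0.12 and no filter by 0.14. Normexp called 5037 targets (20.7%), 11 repair genes lower, where 10.2% of all targets were lower, and 17 probes of repair genes. With the filter on all 6 arrays 16 probes were called, and 16 with the trended robust variance. Without a filter, 2 genes were lower, where 2.94% of all targets were, and 3 probes were called. A replicate block, which treats same-numbered arrays as pairs, called 773 targets (3.17%) and 0 repair genes in either direction, with 0 probes. No array correlated best with its own number, which with 3 arrays per group cannot decide whether mice were paired. Leaving out 1 array gave 859 to 1907 targets (3.53% to 7.83%), 0 to 2 repair genes higher, 0 to 3 lower and 0 to 5 probes, with medians of -0.39 to -0.28. Such fits have fewer arrays. Signs turned only in genes that did not pass: with quantile normalization and the deposited table Rev3l was at 0.04 and Chek1 at 0.00 (just below 0); with median scaling Gtf2h1 was at -0.09, Ung at -0.07 and Chek1 at -0.03; with normexp Gtf2h1 was at -0.04, Ung at -0.01, Neil1 at 0.12 and Fancd2 at 0.06. With 1 array left out, values ranged across 0 for Chek1 (-0.30 to 0.80), Gtf2h1 (-0.05 to 0.06), Neil1 (-0.07 to 0.02), Rad23b (-0.30 to 0.03), Rev3l (-0.07 to 0.05) and Ung (-0.06 to 0.13). The cause of these differences was not tested.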
